A study of Oryza sativa with 39 samples.

Results

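The genes of chlorophyll synthesis were followed through leaf transcriptomes of 13 rice (Oryza sativa) lines. They are the 10 loci given for CHLH, CHLI, CHLD, CHLM, CRD1, DVR, PORA, PORB, CHLG and CAO1. Each of 39 libraries held 109715 identifiers. The choice followed their place in the pathway and was made with earlier results of these data known. The study asked how far genetic engineering (GE) and conventional cross-breeding change the leaf transcriptome. Leaf sections of about 2 cm from the 2nd leaf from the top, 5 plants to a pool, were taken at tillering (age label 5 weeks), and 3 such pools were sequenced per line.

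The 7 Xian/indica (XI) lines comprised the parent MH63, the GE lines T1C-19 and HH1, and the cross-bred lines XIY63, XXY63, SY63 and JY63. The 6 Geng/japonica (GJ) lines comprised the parent XS11, the GE lines KMD1 and KMD2, and the cross-bred lines CJ03, JH1 and T202. T1C-19 carries a synthetic cry1C under the maize ubiquitin promoter and HH1 a cry1Ab/Ac fusion under the rice actin1 promoter. KMD1 and KMD2 are independent homozygous events of a synthetic cry1Ab under the maize ubiquitin promoter. All GE lines came from Agrobacterium transformation, so each is 1 event in its parent's background. The cross-bred lines each have MH63 or XS11 as a parent, and their other parents are not modelled here.

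Chlorophyll is made from protoporphyrin IX in the plastid. Magnesium chelatase, built from the CHLH, CHLI and CHLD subunits, inserts magnesium, CHLM adds a methyl group, CRD1 is a subunit of the cyclase that closes the isocyclic ring, and DVR reduces a vinyl side group. PORA and PORB, the light-dependent protochlorophyllide oxidoreductases, then reduce protochlorophyllide, CHLG (chlorophyll synthase) attaches the isoprenoid tail, and CAO1 (chlorophyllide a oxygenase) makes the b form used in light-harvesting antennae. In rice, PORA is known for early leaf development and greening, and PORB for green leaves at later stages.

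The number of reads on genes ran from 3989871 to 8318607 per library, with a median of 5492832. These numbers take 1 step of the deposited values as 1 read, and they are several times smaller than the clean reads the study states, for a reason that was not found. All levels are FPKM, read fragments scaled to gene length and library size. Differences were taken as log2(FPKM + 1), and on this scale a change in a gene near or below 1 FPKM comes out smaller than it is. The reference genome is of the GJ type, so a difference between subspecies and a difference in how well reads matched the reference cannot be told apart. Of 7 loci fixed as leaf markers, 3 were listed at 0 in all 39 libraries and 1 more had at most 2 reads in all. The leaf markers summed to 17.4 to 146 FPKM in XI libraries and to 40.1 to 358 FPKM in GJ libraries. Of 3 root markers, 2 were at 0 in all libraries, and the 3 summed to at most 0.351 FPKM in any library. The endosperm markers summed to at most 21.5 FPKM in any library. With leaf and root loci at 0 throughout, these lists do not settle the tissue make-up of a library.

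The magnesium chelatase subunits and DVR gave no usable level. CHLH (OS03G0323200), CHLI (OS03G0563300) and DVR (OS03G0351200) were listed at 0 in all 39 libraries. CHLD (OS03G0811100) was above 0 in 2 libraries, KMD1 replicate 2 and T1C-19 replicate 3, each at a value taken as 1 read. That is the smallest number that fits, and with values in 2 libraries only it could be larger. In the same files 13906 of 37830 reference loci, or 36.8%, were listed at 0 throughout, leaf markers among them. A 0 here may therefore be a failed estimate, its cause was not tested, and no statement on the expression of these 4 genes is made. The other 6 members were above 0 in every library and passed the filter on low values in each comparison. Whether reads were also missed for these 6 was not tested, so their levels may be incomplete too. By their identifiers they lie on chromosome 6 (CHLM), 1 (CRD1), 4 (PORA), 5 (CHLG) and 10 (PORB and CAO1). The gene lengths implied by the value steps were 469 bases for CHLM, 1685 for CRD1, 1384 for PORA, 2943 for PORB, 1742 for CHLG and 2672 for CAO1.

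CHLM (OS06G0132400), the methyltransferase, was thinly read, with 6 to 66 reads per library. In these whole leaf sections, fewer cells of a type and less RNA per cell cannot be told apart, for this gene and the others. It stood at 26.9, 15.0 and 30.5 FPKM in the XS11 libraries and at 4.25, 3.87 and 2.53 FPKM in those of T1C-19, and these line means were the highest and the lowest, 6.80 times apart. The XS11 and T1C-19 libraries did not overlap. In the order of line means, however, the replicate ranges of all 12 neighbouring pairs overlapped. Within a line the highest library was between 1.40 and 3.05 times the lowest.

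CRD1 (OS01G0279100), the cyclase subunit, had 299 to 1212 reads per library. XS11 was again highest, at 154, 129 and 124 FPKM, and T1C-19 again lowest, at 43.8, 30.3 and 26.3 FPKM. The XIY63 libraries lay close together at 37.5, 38.9 and 39.8 FPKM, while those of its parent MH63 spread over 41.3, 98.5 and 60.3 FPKM. The line means spanned 4.05-fold, and 2 of the 12 neighbouring pairs in their order did not overlap, XS11 above T202 and XXY63 above XIY63.

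PORA (OS04G0678700) was high in all libraries but varied widely between replicates. Its values ran from 152 FPKM in HH1 replicate 1 to 1759 FPKM in KMD2 replicate 3, with a median of 426 FPKM. The 3 JY63 libraries stood at 1278, 187 and 632 FPKM, a 6.82-fold range within a line, and the 3 KMD2 libraries at 661, 306 and 1759 FPKM. The spread within lines, 0.81 (SD of log2), exceeded that between line means, 0.55, and every neighbouring pair of lines overlapped.

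PORB (OS10G0496900) was far lower than PORA per unit of length and separated the lines most. Over the 21 XI libraries its lowest, median and highest values were 0.0800, 1.35 and 3.18 FPKM, and over the 18 GJ libraries 2.35, 11.5 and 23.9 FPKM. Only 1 XI library, T1C-19 replicate 1, and 1 GJ library, T202 replicate 1, fell into the other subspecies' range. Line means ran from 0.224 ± 0.18 FPKM (SD, n = 3) in HH1 to 15.4 ± 7.49 in JH1, a 68.8-fold span, and HH1 alone stood apart from its neighbour in the order of lines. Its SD between line means was 1.35 and within lines 0.37 on the log2 scale.

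CHLG (OS05G0349700), the chlorophyll synthase gene, was highest in the KMD2 libraries, at 46.0, 47.6 and 34.5 FPKM. The KMD1 libraries followed at 33.1, 41.3 and 37.1 FPKM. It was lowest in HH1, at 8.27, 8.35 and 6.62 FPKM, and low in T202, at 5.37, 12.0 and 11.9 FPKM. The highest XI line, XIY63 at 30.4 ± 4.94 FPKM (SD, n = 3), had a lower mean than both KMD lines, and all 12 neighbouring pairs overlapped.

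CAO1 (OS10G0567400) was the steadiest of the measured members. Its library values lay between 646 FPKM in JY63 replicate 2 and 1293 FPKM in MH63 replicate 2, and its line means spanned 1.39-fold. KMD2 stood at 767, 786 and 767 FPKM and XS11 at 1019, 1104 and 932 FPKM, with no overlap between these lines. Rice has a close copy of this gene on the same chromosome, and how reads fitting both were counted is not given in the sources used here.

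**Figure D1:**
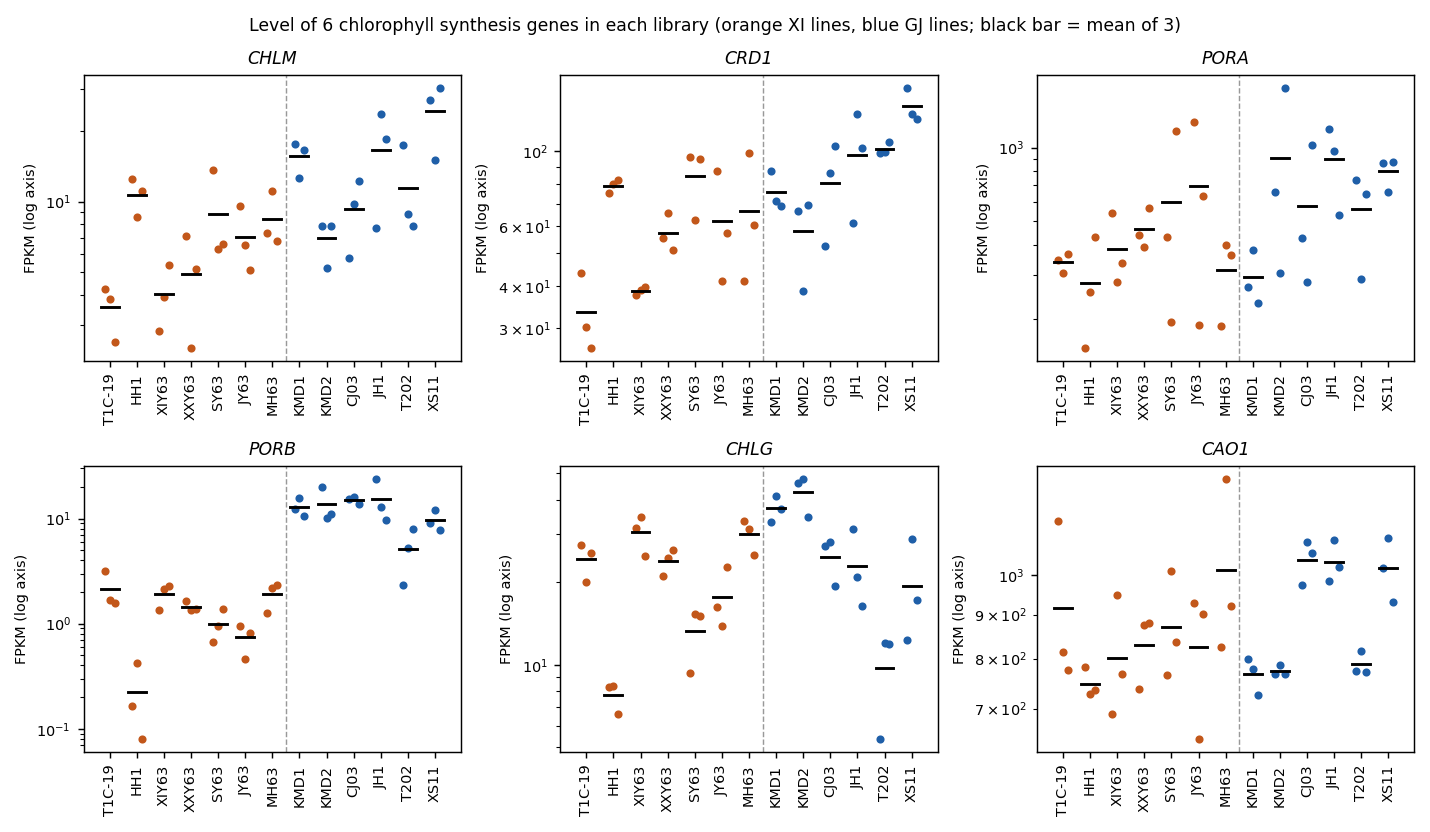
FPKM of the 6 measured members in each library, on log axes, with XI lines in orange, GJ lines in blue and a black bar at the mean of 3 libraries. PORB is at or below 3.18 FPKM in every XI library and at or above 2.35 FPKM in every GJ library, whereas the subspecies overlap widely for the other 5 genes.

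Across the 13 lines, 5 of the 6 measured members differed in limma's moderated F test at an adjusted p below 0.05, where 78.2% of all 30257 tested genes did. The F value was 42.4 for PORB (adjusted p = 5.86e-14), 12.9 for CHLG (adjusted p = 6.65e-08), 7.21 for CHLM (adjusted p = 1.80e-05), 6.96 for CRD1 (adjusted p = 2.46e-05) and 2.85 for CAO1 (adjusted p = 0.0147). For PORA it was 1.56 (adjusted p = 0.185). The share of members that differed was thus close to that of all genes, and PORA, whose spread between replicates was the widest of the 6, was the exception.

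Between the subspecies, PORB was the member called, with lower levels in the XI lines. A gene was called where the Benjamini-Hochberg adjusted p of limma's moderated test was below 0.05 and the change at least 2-fold, and 17.2% of all tested genes were called in this comparison of 7 XI and 6 GJ line means. PORB averaged 1.34 ± 0.715 FPKM over XI lines (SD, n = 7) and 12.0 ± 3.91 FPKM over GJ lines (SD, n = 6), an 8.90-fold difference in means. The log2 difference was −2.43 ± 0.27 (SE; adjusted p = 9.37e-06). The highest XI line, T1C-19 at 2.15 FPKM, stayed below the lowest GJ line, T202 at 5.18 FPKM.

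CHLM averaged 6.79 ± 2.70 FPKM in XI and 14.0 ± 6.17 FPKM in GJ lines, a log2 difference of −0.90 ± 0.29 (SE; adjusted p = 0.0251). With the adjusted p alone, 2 of the 6 members, PORB and CHLM, passed, beside 35.8% of all tested genes. CHLM reached 2-fold on this scale when HH1 or KMD2 was left out (−1.02 and −1.06), and also with the 9 non-GE lines alone (−1.03). It missed the adjusted p threshold without KMD1 (−0.85, adjusted p = 0.0527), JH1 (−0.85, adjusted p = 0.0536) or XS11 (−0.73, adjusted p = 0.0580).

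CRD1 averaged 60.3 ± 19.02 FPKM in XI and 91.6 ± 26.7 FPKM in GJ lines (adjusted p = 0.0618). Under other settings CRD1 passed the adjusted p alone, with the line as a random effect (0.0287), with non-GE lines only (0.0285) and without HH1 (0.0387), SY63 (0.0382) or KMD2 (0.0308), but not 2-fold. It also passed without CJ03 replicate 1, JY63 replicate 1, KMD2 replicate 2 or MH63 replicate 2 (0.0365 to 0.0490). Without XS11 the adjusted p of CRD1 was 0.138. PORA averaged 441 ± 156 and 673 ± 240 FPKM (adjusted p = 0.0752). PORA passed the adjusted p alone without KMD1 (−0.80, 0.00872) and without JY63 replicate 1, SY63 replicate 3 or CJ03 replicate 2 (0.0340 to 0.0491). With the line as a random effect its adjusted p was 0.269. CHLG averaged 21.0 ± 8.50 and 26.1 ± 12.0 FPKM (adjusted p = 0.612), and CAO1 858 ± 86.0 and 904 ± 140 FPKM (adjusted p = 0.565). None of these 4 was called, and their line means overlapped between the subspecies.

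In the exact two-sided permutation test over the 1716 ways to assign 13 lines, the unadjusted p was 0.0012 for PORB, which is the smallest these splits allow. It was 0.0140 for CHLM, 0.0373 for CRD1, 0.0513 for PORA, 0.534 for CHLG and 0.434 for CAO1, 6 such tests in all. Lines of a subspecies share MH63 or XS11 as a parent, so they are not independent and these p-values are too small.

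**Figure D2:**
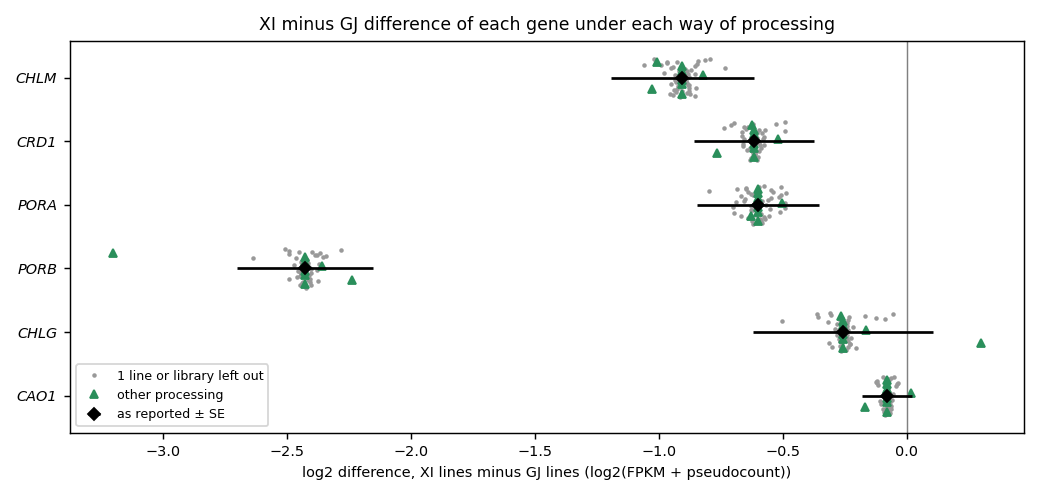
Log2 difference between XI and GJ lines for each measured member, with the reported value and its SE (diamond), other ways of processing (triangles) and 1 line or library left out (dots). PORB stays between −3.20 and −2.24 throughout, and values cross 0 for CHLG (0.30 with GE lines left out) and CAO1 (0.0186 with plain read totals).

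The parent comparisons asked what changed in each bred line. Those within a subspecies all share the same 3 libraries of MH63 or XS11, so they are not independent of each other. In T1C-19 none of the 6 members was called against MH63, where 2.19% of genes were. Its CHLM was at 4.25, 3.87 and 2.53 FPKM against 7.34, 11.1 and 6.81 FPKM in MH63, without overlap, and the log2 difference was −1.04 ± 0.24 (SE; adjusted p = 0.0627).

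In HH1, the other GE line from MH63, PORB and CHLG were called lower, 2 of 6 members beside 17.6% of all genes. CHLG stood at 8.27, 8.35 and 6.62 FPKM in HH1 and at 33.3, 31.3 and 25.1 FPKM in MH63. The groups did not overlap, and the log2 difference was −1.82 ± 0.16 (SE; adjusted p = 0.000305). PORB stood at 0.166, 0.426 and 0.0800 FPKM in HH1 and at 1.25, 2.20 and 2.32 FPKM in MH63, again without overlap (−1.24 ± 0.23, SE; adjusted p = 0.00428).

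The HH1 values of PORB rest on 8 reads in all, against 134 in MH63. The pooled ratio was 8.66-fold, with an exact 95% interval of 4.27 to 20.5 that covers counting error only and holds only if 1 step is 1 read. The HH1 libraries held 3989871 to 4349957 reads and the MH63 libraries 6463012 to 8318607 reads, and the part of this gap in the result was not tested. PORB passed the filter on low values through the MH63 libraries alone, so without any 1 of them it was not tested, and with no filter it was still called. The other members of HH1 gave log2 differences between −0.41 for CAO1 and 0.33 for CHLM and CRD1, and none was called.

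In KMD1, 1 of 6 members was called against XS11, beside 3.93% of all genes. PORA was at 270, 382 and 232 FPKM in KMD1 and at 867, 659 and 870 FPKM in XS11, without overlap, a log2 difference of −1.46 ± 0.20 (SE; adjusted p = 0.0150). This call was lost with all 39 libraries in 1 model (adjusted p = 0.0994), without the filter on low values (adjusted p = 0.0552) and without replicate 1 or 3 of either line, the difference staying between −1.66 and −1.30 when 1 library was left out. CRD1 differed by −0.83 ± 0.14 (adjusted p = 0.0274) and CAO1 by −0.40 ± 0.09 (adjusted p = 0.0403), both under 2-fold. Both missed the threshold without the filter (adjusted p = 0.0644 and 0.0866) and without any 1 library other than XS11 replicate 2 (adjusted p of 0.0504 to 0.113 for CRD1 and 0.0712 to 0.138 for CAO1), and CAO1 also did with all 39 libraries in 1 model (0.0589) or the default trend (0.0711). CHLG was called higher in KMD1 without XS11 replicate 2 (1.29) and with FPKM over plain read totals (1.22).

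In KMD2, the second event of the same construct, 3 of 6 members were called, beside 13.4% of all genes. CHLM was lower, at 7.90, 5.21 and 7.86 FPKM against 26.9, 15.0 and 30.5 FPKM in XS11 (−1.61 ± 0.29, SE; adjusted p = 0.0101). CRD1 was lower as well, at 66.4, 38.7 and 69.4 FPKM against 154, 129 and 124 FPKM (−1.25 ± 0.23, SE; adjusted p = 0.0112). Neither gene's libraries overlapped between the lines. CRD1 fell under the 2-fold limit without KMD2 replicate 2 (−0.98) and with FPKM over plain read totals (−0.91).

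CHLG was higher in KMD2, at 46.0, 47.6 and 34.5 FPKM against 12.3, 28.8 and 17.2 FPKM in XS11 (1.17 ± 0.30, SE; adjusted p = 0.0279). It was the only member called higher in any parent comparison as tested here, and the call was lost without replicate 1 or 2 of KMD2, replicate 1 or 3 of XS11 (0.90 to 1.48 when 1 library was left out) or the filter on low values. In KMD1 its difference was 0.98 ± 0.28 (adjusted p = 0.0679), and whether the events differ from each other was not tested. CAO1 in KMD2 differed by −0.39 ± 0.09 (adjusted p = 0.0179), under 2-fold, and missed the threshold without KMD2 replicate 1 (adjusted p = 0.0713) or 2 (0.0608). With FPKM over plain read totals the CAO1 difference was −0.06 in KMD2 (adjusted p = 0.688), where the median of all genes moved up by 0.24, and −0.15 in KMD1 (adjusted p = 0.319), where it moved up by 0.18.

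Among the lines bred from MH63 by crossing, SY63 alone had a member called, 1 of 6 beside 8.26% of all genes. CHLG was at 9.34, 15.4 and 15.1 FPKM in SY63, below all MH63 libraries (−1.14 ± 0.23, SE; adjusted p = 0.0211). The call was lost without SY63 replicate 1, without MH63 replicate 1 or 2, and without the filter, and the difference stayed between −1.25 and −0.92 when 1 library was left out. In XIY63, XXY63 and JY63 none of the 6 members was called, where 8.73%, 4.13% and 5.54% of genes were.

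For these 3 lines the values nearest a call were CHLM in XIY63 (−0.90 ± 0.25, adjusted p = 0.0560) and, in JY63, CHLG (−0.75 ± 0.21, adjusted p = 0.0774) and PORB (−0.74 ± 0.21, adjusted p = 0.0812). In XXY63 the lowest adjusted p was 0.305, for CHLM. PORA, with SEs of up to 0.67, gave differences from MH63 between 0.30 and 0.82 in the 4 cross-bred XI lines, with adjusted p of 0.319 or more.

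Among the lines bred from XS11 by crossing, CHLM was called lower in CJ03, 1 of 6 members beside 10.3% of all genes. It stood at 5.75, 9.81 and 12.2 FPKM against 26.9, 15.0 and 30.5 FPKM in XS11 (−1.29 ± 0.34, SE; adjusted p = 0.0472). This call was close to the threshold and was lost under 5 of 7 other settings and without replicate 1 or 2 of CJ03 or replicate 1 or 3 of XS11 (−1.59 to −1.01 when 1 library was left out). PORA was called lower in CJ03 without CJ03 replicate 3 (−1.19). JH1 had none of 6 members called, beside 3.05% of genes, and T202 none, beside 9.69%.

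In T202, CAO1 differed by −0.37 ± 0.08 (SE; adjusted p = 0.0248), under 2-fold, at 775, 817 and 772 FPKM. It missed the threshold with plain read totals (−0.24, adjusted p = 0.160), no filter (adjusted p = 0.0503), the default trend (0.0645) or all 39 libraries in 1 model (0.0765), and without any 1 library other than XS11 replicate 3 (0.0663 to 0.106). T202 also held the lowest PORB of the GJ lines, at 2.35, 5.25 and 7.93 FPKM, with a difference from XS11 of −0.87 ± 0.36 (adjusted p = 0.163). CHLM in T202 was called lower without T202 replicate 1 (−1.37) and with all 39 libraries in 1 model (−1.04).

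Between the parents, 4 of 6 members were called lower in MH63 than in XS11, beside 33.8% of all genes. The log2 differences were −1.86 ± 0.22 for PORB (adjusted p = 0.000737), −1.39 ± 0.30 for CHLM (adjusted p = 0.00912), −1.39 ± 0.30 for PORA (adjusted p = 0.00816) and −1.10 ± 0.30 for CRD1 (adjusted p = 0.0221). For PORB the MH63 libraries, at 1.25, 2.20 and 2.32 FPKM, lay below those of XS11, at 9.17, 12.0 and 7.73 FPKM. For PORA, MH63 stood at 187, 399 and 364 FPKM and XS11 at 867, 659 and 870 FPKM. CHLG gave 0.67 ± 0.30 (adjusted p = 0.103) and CAO1 −0.03 ± 0.17 (adjusted p = 0.894). CRD1 lost its call without replicate 1 or 3 of MH63 or replicate 1 of XS11 (−1.42 to −0.80 when 1 library was left out), without the filter (adjusted p = 0.0505) and with plain read totals (−0.83), and PORA lost its call with all 39 libraries in 1 model (adjusted p = 0.0562). These 6 libraries are also part of the subspecies comparison.

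**Figure D3:**
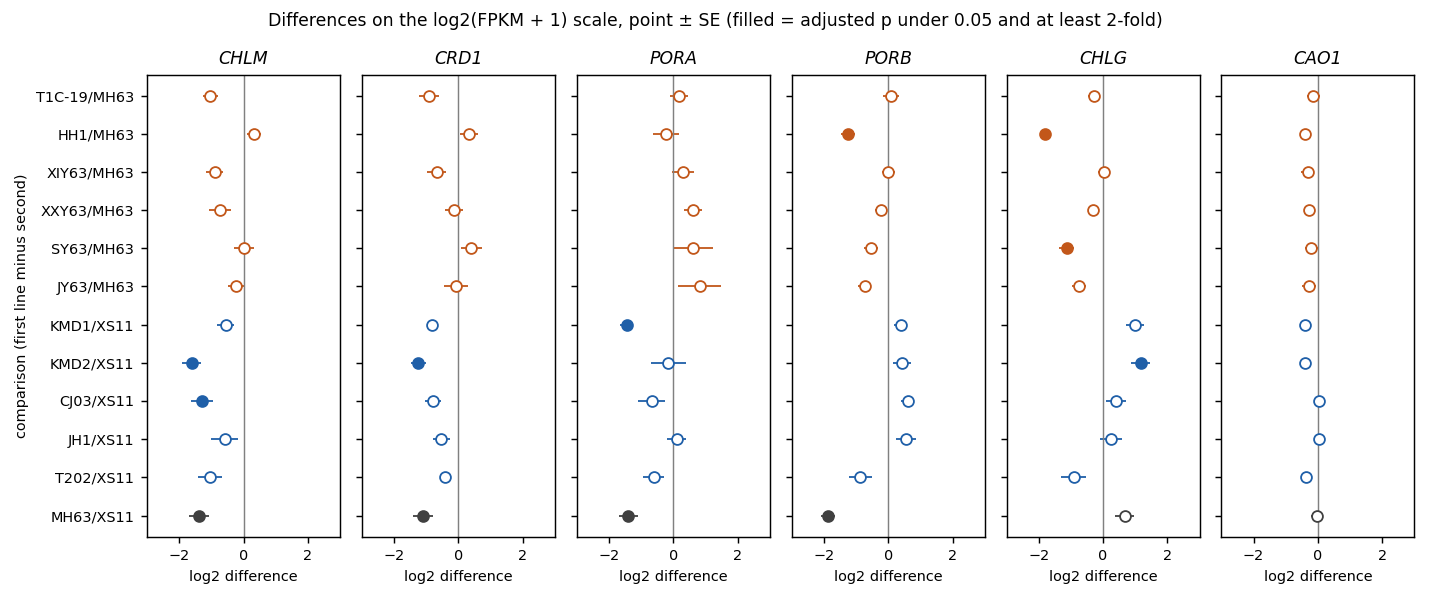
Log2 difference ± SE of each measured member in the 11 parent comparisons and between the parents, with filled points where a gene was called. CHLG is filled to the left in HH1 (−1.82) and SY63 (−1.14) and to the right in KMD2 (1.17), and CAO1 has no filled point.

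A list of 20 further loci around chlorophyll and heme synthesis was fixed for comparison, of which 7 were at 0 in all libraries and 8 or 11 were tested, depending on the comparison. None was called higher in any comparison. Between the subspecies 2 of 11 were called lower in XI lines, beside 17.2% of all genes called in either direction, and between the parents 2 of 8 were lower in MH63, beside 33.8%. Of the 8 tested, 1 was lower in HH1 (17.6% of all genes called), 2 in SY63 (8.26%), 2 in KMD2 (13.4%), 1 in CJ03 (10.3%) and 1 in T202 (9.69%), and the other 6 bred lines had none. The list's median log2 difference between XI and GJ was −0.12, that of the 6 members −0.61 and that of all tested genes 0.02.

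CHLM and CRD1, which act in succession, had similar profiles over the lines. The Pearson correlation of their log2 levels was 0.91 over the 13 line means, 0.91 within the 7 XI and 0.81 within the 6 GJ lines, and 0.55 over the deviations of 39 libraries from their line means. Over all 39 libraries it was 0.82, and CRD1 then ranked 234 and CHLM 198 in each other's list of 9540 genes with a mean of at least 5 FPKM. The closest genes reached 0.94 for CHLM and 0.93 for CRD1, so the pair was not each other's nearest match. These are descriptions over lines that share parents and libraries that share depth.

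PORB and CHLG followed each other within each subspecies, with 0.94 over XI lines and 0.82 over GJ lines, but at different levels, so that the correlation over all 13 lines was 0.50. Over all 39 libraries it was also 0.50. CHLG then ranked 2005 in the list of PORB and PORB 1410 in that of CHLG, among the same 9540 genes. HH1 was lowest for both genes among XI lines and T202 among GJ lines. CHLG and CRD1 went in opposite directions, with −0.69 in XI and −0.72 in GJ lines. Over deviations within lines the values were 0.61 for PORB and CHLG, −0.69 for CHLM and CHLG and −0.27 for CRD1 and CHLG. The highest correlation of PORA with another member over line means was 0.54, with PORB.

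**Figure D4:**
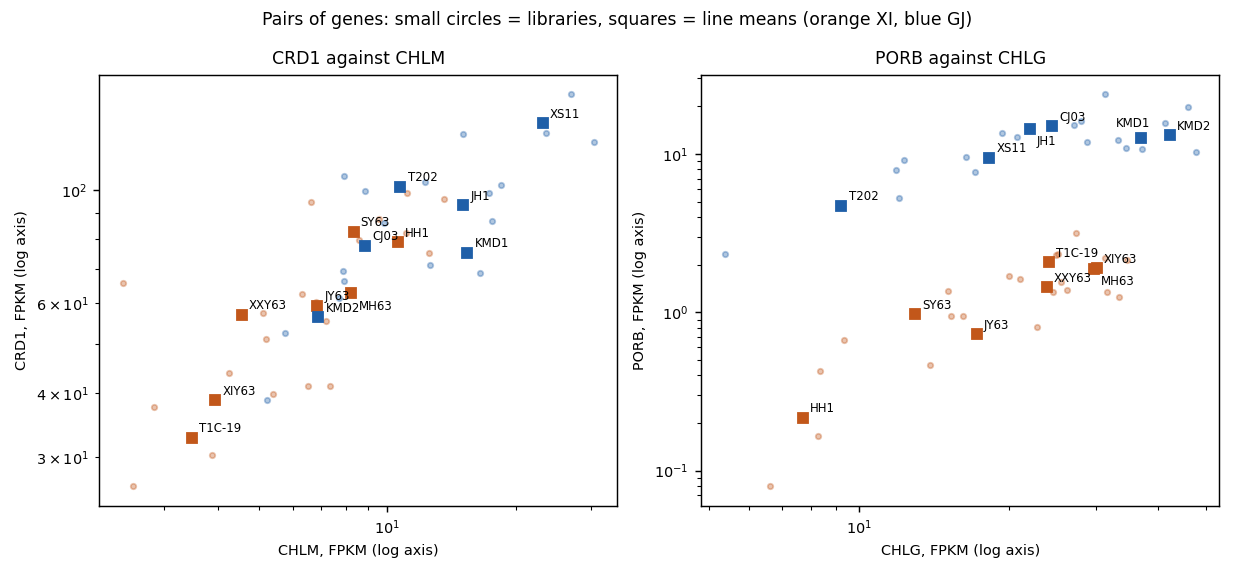
CRD1 against CHLM and PORB against CHLG, in FPKM on log axes, with small circles for libraries and squares for line means (taken on the log2(FPKM + 1) scale). XI (orange) and GJ (blue) lines lie along 1 band for CRD1 and CHLM (0.91 over lines) and along separate bands for PORB and CHLG.

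Ratios within a library do not depend on the scaling between libraries. The log2 ratio of PORB to PORA had line means between −10.5 and −7.34 in XI and between −6.81 and −4.51 in GJ lines, so PORA was the more abundant form per length in every line and the line means did not overlap between subspecies. The log2 ratio of CRD1 to CHLM lay between 2.90 and 3.67 in XI and between 2.29 and 3.25 in GJ lines, and that of CAO1 to CHLG between 4.72 and 6.60 and between 4.19 and 6.43. Ratios with the magnesium chelatase subunits could not be formed.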

How the data were processed

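RNA of pooled leaf sections from 13 rice lines, 3 replicates each, was sequenced on an Illumina HiSeq platform. The authors aligned clean reads to IRGSP-1.0 with HISAT2 2.09, counted them per gene with featureCounts 1.5.0-p3 and deposited FPKM per gene and library, from gene length and reads. They tested lines with DESeq2 on counts, which are not used here. Their FPKM include a scaling between libraries, as the total behind the FPKM was 0.855 to 1.19 times the reads on genes.

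Groups follow the sample titles, and subspecies and parentage follow the study's methods. The members and lists were chosen with earlier results of these data known. The files hold identifiers only. A RefSeq table of another assembly lists 8 of the 10 members' symbols, each on the chromosome in the member's identifier, but does not pair them with it. No sequence was available to print, so no protein, promoter or motif is given.

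For each gene the smallest length was taken at which its FPKM in every library above 0 gave whole reads (within 0.01 read). This gave reads and lengths for 44421 genes above 0, with 33195 of them seen in 8 or more libraries. The length is chosen to make the values whole, so for genes seen in few libraries whole steps are no test. Their reads may be too few by a factor of their own. The reads sum to far fewer than the study's clean reads, for a reason not found, so all read numbers may share an unknown constant factor. A gene entered a fit if 3 or more of its libraries reached 0.5 FPKM. Tests on log2(FPKM + 1) used limma (version 3.58.1, R 4.3.3) with a variance trend over mean log2 reads (plus 0.5). P-values were Benjamini-Hochberg adjusted over all genes tested. Each line was compared with its parent on 6 libraries and XI with GJ on line means. The steps were tested on simulated data. For the limma fits these had the same dispersion for every gene and no spread between lines of a subspecies. They therefore do not test how the fits handle the spread of these data. Alternatives were a pseudocount of 0.1, no filter, limma's default trend, FPKM over plain read totals, all 39 libraries in 1 model, the line as a random effect, the replicate number as a block, non-GE lines only, no minimum fold change, and each line or library left out. Every pair of replicate libraries differed by more than sampling noise (mean chi-square per gene 5.28 to 35.5). P-values of the F test and of comparisons of a line with its parent or between parents measure the spread between pools of plants grown together. Those of XI against GJ on line means measure the spread between lines of a subspecies. Most alike genes are given by their correlation only, since no table names them. Clock loci were planned as a reference and 3 of 4 were at 0 in all libraries. Descriptions and figures used scipy 1.17.1, pandas 2.3.3, numpy 2.4.6 and matplotlib 3.10.9 under Python 3.11.15.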

Additional observations from a re-analysis of the deposited data

Results flagged for a closer look

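The mean change of CHLG and of PORB in 2 GE lines against MH63 differed from that in 2 GE lines against XS11. This came from a contrast over all 39 libraries in limma that was tested after the data were seen. Its SE and p-value measure the spread between pools of a line, not between transformation events. The XI and GJ events also differ in construct and parent, so these cannot be told apart from the subspecies. For CHLG the mean log2 difference of T1C-19 and HH1 from MH63, minus that of KMD1 and KMD2 from XS11, was −2.13 ± 0.33 (SE; adjusted p = 4.92e-05). The single lines gave −0.29 for T1C-19, −1.82 for HH1, 0.98 for KMD1 and 1.17 for KMD2, so 2 of 2 XI lines were below and 2 of 2 GJ lines above their parent. In limma's parent comparisons T1C-19 (adjusted p = 0.369) and KMD1 (adjusted p = 0.0679) were not called. The T1C-19 libraries, at 27.3, 20.1 and 25.5 FPKM, overlapped those of MH63, at 33.3, 31.3 and 25.1 FPKM. The contrast was −1.36 without HH1 (adjusted p = 0.0226) and between −2.89 and −2.03 without any 1 of the other GE lines.

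For PORB the contrast was −0.98 ± 0.36 (SE; adjusted p = 0.0470), from 0.09 in T1C-19, −1.24 in HH1, 0.39 in KMD1 and 0.43 in KMD2. It rested on HH1, as it was −0.32 without that line (adjusted p = 0.738), and it also missed the threshold without KMD1 (−1.01, adjusted p = 0.0588) or KMD2 (−0.96, adjusted p = 0.0872). Of all genes, 23.3% passed this contrast, and MH63 and XS11 enter every term of it. The same contrast for cross-bred lines gave no member past the threshold, with the lowest adjusted p at 0.370 for CHLG, beside 13.7% of all genes. Single cross-bred lines gave CHLG differences from MH63 of 0.02 in XIY63, −0.30 in XXY63, −1.14 in SY63 and −0.75 in JY63. Against XS11 they gave 0.40 in CJ03, 0.26 in JH1 and −0.92 in T202. The directions seen in GE lines thus also occurred in cross-bred lines, though not in all.

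No line's mean stood apart from the other lines of its subspecies by Dixon's test, in 24 tests of the highest and lowest line of 6 genes in XI and GJ.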

How the results depend on the processing

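The number of members called between XI and GJ was 1, and 2 with a pseudocount of 0.1, with non-GE lines only or without a minimum fold change, CHLM being the gene added. Over all genes the calls were 5194 of 30257 as tested, 8878 of 30257, 5249 of 28746 and 10824 of 30257 in that order. When a line or library was left out the number of members called was 1 to 2. The direction turned for 2 uncalled genes, CHLG with non-GE lines only (0.30) and CAO1 with FPKM over plain read totals (0.0186, adjusted p = 0.892). The 5 members that differed among the 13 lines were 5 under every alternative and left-out library. For T1C-19, XIY63, XXY63, JY63 and JH1 the count was 0 throughout, and for HH1 it was 2 under all 7 alternatives and 1 to 2 with a library left out.

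For SY63 the count of 1 became 0 without the filter, and 0 to 1 with a library left out. For KMD1 the count of 1 became 0 without the filter, 2 with plain read totals, 0 with all 39 libraries in 1 model and 3 without a minimum fold change, and 0 to 2 with a library left out. Over all genes the KMD1 calls were 819 of 20829 as tested, and under these 4 settings 273 of 34044, 1096 of 20724, 1124 of 20829 and 1669 of 20829. For KMD2 the count of 3 lay between 2 and 4, and 1 to 3 with a library left out. The count of 4 came without a minimum fold change, where 5100 of 20901 genes were called, against 2803 as tested. For CJ03 the count of 1 became 0 with a pseudocount of 0.1, without the filter, with the default trend, with plain read totals and with the replicate block, and 0 to 2 with a library left out. For T202 the count of 0 became 1 with all 39 libraries in 1 model and without a minimum fold change, and 0 to 1 with a library left out. Over all genes the T202 calls were 1987 of 20513 as tested, and 2349 and 2959 under these settings. Between the parents the count of 4 was 3 to 4. The causes of these changes were not tested.

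In no comparison did the deviations of all 3 same-numbered pairs of libraries correlate above 0.1, so the libraries were not paired. The mean over the 3 pairs ran from −0.11 in MH63 against XS11 to 0.14 in KMD1 against XS11. Whether the replicate number marks a batch was not settled by this. With the replicate block the calls over all genes were 0.559 to 1.34 times those without it in 12 comparisons, and among members that block changed the CJ03 count alone. Plain read totals moved the median of all genes by 0.16 in CJ03, 0.18 in KMD1, 0.24 in KMD2 and 0.19 in MH63 against XS11. The share of called genes that were higher then went from 56.9% to 84.0% in KMD1, from 49.2% to 74.6% in KMD2 and from 48.3% to 63.2% in CJ03. Of 78 line levels, 70 moved by less than 1 SD with plain totals. Depth limits PORB in XI lines, with 1 to 62 reads per library, and CHLM, with 6 to 66.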
